A study of Mus musculus with 4 samples.

Results

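Ribosome biogenesis begins in the nucleolus, where RNA polymerase I transcribes the ribosomal RNA precursor, and continues with the modification, cutting and folding of that RNA into the small and large ribosomal subunits. The genes described here are 42 that encode the polymerase, its initiation factors, nucleolar chaperones, the small nucleolar ribonucleoproteins (snoRNPs) that modify the RNA, and assembly factors of either subunit. They were taken from a list of gene symbols, all 42 of which were among the 30041 genes with a deposited score. Activated B cells enlarge and divide after LPS, a bacterial cell wall component sensed by Toll-like receptor 4, and cells in that state make many new ribosomes.

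Splenic B cells of the C57BL/6 strain were cultured with LPS for 72 h. RNA-seq was done on 2 control and 2 cKO samples. The cKO mice carried a loxP-flanked and a deleted allele of Nfkbiz, the gene of the nuclear protein IκB-ζ, with the Cre recombinase expressed from the Cd79a locus (Mb1-Cre), and the control mice carried the same Nfkbiz alleles, one of them already deleted, without Cre. The mouse ages and whether a sample pooled several mice are not given in the sources used here, so the p-values below measure the spread between these samples, which may be technical. The deposited value is a score per gene with no stated unit, and its low values behaved as reads per exon base scaled to the library. On that reading the libraries held about 17800000, 18300000, 19900000 and 17500000 reads (control 1, control 2, cKO 1 and cKO 2), and the least covered value among the 42 genes, that of Polr1e in cKO 2, rested on about 618 reads. Nfkbiz itself scored 0.0241 and 0.0226 in control, and 0.0127 and 0.0116 in cKO (log2 fold change -0.94, limma adjusted p = 0.0282). This was a check of the labels, and the adjusted p rose to 0.134 without cKO 1 and 0.0764 without cKO 2.

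The markers of the labelled cell type were present, since all 11 B cell marker genes passed the filter on low scores, with summed scores of 5.64 and 6.12 in control and 5.29 and 5.50 in cKO samples. Of these 11, Cd79a, whose locus carries the Cre, and Fcer2a were lower in cKO at an adjusted p under 0.05. Of 17 myeloid markers 7 passed the filter, and their list summed to 0.305 and 0.316 in control and 0.398 and 0.385 in cKO samples, with Elane and S100a9 at 0 in every sample. Of 16 T and NK cell markers 1 passed, with list sums of 0.0381 and 0.0501 in control and 0.0820 and 0.0764 in cKO samples and with Gzma at 0. Of 8 erythroid markers 2 passed, with list sums of 0.0139 and 0.00283 in control and 0.00293 and 0.00260 in cKO samples. The part of other cells in the results below was not tested.

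The 42 genes lie on 19 chromosomes of NCBIM37, the assembly also called mm9, and their annotated exons cover from 1109 bases (Nop10) to 8831 bases (Utp20). Rrs1 has a single exon, whereas the longest Utp20 transcript has 62. The introns of ribosome biogenesis genes often hold small nucleolar RNAs (snoRNAs), the guide RNAs of the same machinery, and 26 annotated snoRNA entries lie inside 7 of the 42 genes: Taf1d (8), Nop56 (4), Nop58 (4), Ncl (3), Gnl3 (3), Wdr43 (3) and Dkc1 (1). Several of the genes have near-identical copies elsewhere in the genome. Among all words of 38 bases, the length of the reads, in their spliced transcripts, 87.4% for Fbl, 74.7% for Ddx18, 66.9% for Npm3, 53.8% for Npm1, 33.0% for Nop56, 30.7% for Pes1 and 28.6% for Taf1d also occur outside the gene. The scores of these 7 genes are therefore uncertain, because how the score counts reads with several matches is not given in the sources used here. For 13 of the 42 genes no such word was found elsewhere. Exons of 14 of the 42 genes overlap those of another annotated gene, for example those of Gnl3 and Glt8d1, and the library kit does not mark strand, so reads in such stretches cannot be assigned to 1 gene.

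Promoters were examined for sequence that the genes share. RefSeq promoter windows (GRCm38.p6, from 250 bases before to 50 after the start site, 300 bases) matched 36 of the 42 genes by symbol, all 36 also found as exact matches in NCBIM37, whose coordinates are given here. A gene with several windows, such as Ubtf, was counted where any of them held the motif. No window was matched for Npm1, Fbl, Rrs1, Bop1, Rrp12 and Tcof1. The E-box CACGTG, the core site of MYC and related factors, which reads the same on both strands, occurred in 6 of the 36 (16.7%), against 805 of 6460 genes tested for expression that had a window (12.5%) and 8.09% of all 27025 genes with one. The ETS core CCGGAAG, on either strand, occurred in 9 of the 36 (25%), against 23.7% of the 6460. The palindromic consensus site of NRF1 occurred in 0 of the 36, against 2.74%. The κB consensus, the site class of the NF-κB proteins with which IκB-ζ acts, on either strand, occurred in Dkc1 and Ubtf only, 2 of the 36 (5.56%), against 12.1%. No matches of different motifs overlapped in these windows. A match is a description of the letters and shows no binding.

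The 250 bases before the start site are shown for Rrn3, the only one of the 36 with 2 E-boxes, for Nop2, where an E-box and an ETS core lie close together, and for Gar1, the gene with the largest difference between the groups among those with a window. Matches to any of the 4 motifs are in capitals, with the ETS core written CTTCCGG where it lies on the other strand, and the ETS match at the end of the Rrn3 sequence continues beyond the start site. Below them stand stretches of at most 30 bases around the other E-boxes, and around the ETS core of Polr1e, another gene with a large difference.
Rrn3, chr16:13780542-13780791, plus strand: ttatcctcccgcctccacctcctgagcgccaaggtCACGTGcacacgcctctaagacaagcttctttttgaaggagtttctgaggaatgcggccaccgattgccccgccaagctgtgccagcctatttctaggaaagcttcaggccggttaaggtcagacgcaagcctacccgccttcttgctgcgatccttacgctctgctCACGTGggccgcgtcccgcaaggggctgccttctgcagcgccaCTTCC
Nop2, chr6:125081651-125081900, plus strand: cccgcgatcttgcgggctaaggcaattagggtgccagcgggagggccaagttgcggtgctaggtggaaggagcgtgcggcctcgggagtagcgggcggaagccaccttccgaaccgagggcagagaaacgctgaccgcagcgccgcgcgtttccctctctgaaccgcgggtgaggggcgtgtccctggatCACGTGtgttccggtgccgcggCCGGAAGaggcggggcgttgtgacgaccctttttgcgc
Gar1, chr3:129534315-129534564, minus strand: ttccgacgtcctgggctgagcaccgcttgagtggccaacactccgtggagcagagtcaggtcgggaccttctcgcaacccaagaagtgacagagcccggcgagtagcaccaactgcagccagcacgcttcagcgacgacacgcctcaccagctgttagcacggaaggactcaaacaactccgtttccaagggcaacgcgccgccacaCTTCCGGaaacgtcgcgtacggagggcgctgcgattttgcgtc
Mybbp1a, chr11:72254857-72254878, plus strand: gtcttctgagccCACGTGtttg
Pes1, chr11:3863968-3863997, plus strand: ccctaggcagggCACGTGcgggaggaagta
Utp20, chr10:88289510-88289534, minus strand: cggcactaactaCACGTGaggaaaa
Wdr43, chr17:71965560-71965589, plus strand: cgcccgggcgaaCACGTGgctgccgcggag
Polr1e, chr4:45031495-45031523, plus strand: ctagaatgtcaCTTCCGGtttttgagtcc
Counted from the start site, with negative positions before it, the E-boxes of Rrn3 begin at -215 and -48 and that of Nop2 at -60, whereas those of Pes1, Wdr43, Utp20 and Mybbp1a begin at 3, 18, 38 and 41. The median log2 fold change was -0.18 for the 6 genes with an E-box and -0.17 for the 30 with a window but no E-box, and the difference was not tested.

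The comparison of cKO with control B cells asked whether the loss of IκB-ζ goes with a difference in these transcripts. None of the 42 genes passed the test: by limma on log2(score + 0.0001), no gene had an adjusted p under 0.05 in either direction (0 lower, 0 higher), where the background was 1.25% lower and 0.812% higher among the 9727 genes that reached a score of 0.005 in any sample. The smallest adjusted p was 0.114 (Npm1). The unadjusted p was under 0.05 for 8 of the 42 genes, all with lower estimates in cKO, against 11.5% of the genes tested with lower and 10.8% with higher estimates. The estimates lay mostly on one side of 0, since 39 of the 42 log2 fold changes were negative (37 after quantile normalization), against 51.8% of all genes tested. Their median was -0.17, a ratio of 0.890, with a range from -0.47 (Npm1) to 0.05 (Tcof1), while the median of all genes tested was -0.01. All 42 genes had scores above the filter in every sample, so the filter chose none of them for its difference. Bulk RNA cannot tell fewer cells with these transcripts from less of them per cell.

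Levels also bear on this background. The genes with a score above 0.05 in a sample, 1933 in all, had -0.07 as the median log2 fold change, and the 20 members among them -0.16. A gene could pass this filter through 1 group alone. Taf1d, Nolc1 and Ftsj3 passed it through control samples only, and no member passed it through cKO samples only. The -0.16 therefore rests partly on genes chosen through their control scores. Over the 42 genes the log2 fold change showed almost no rank relation to the mean score (Spearman's rho -0.03, a description over genes that share the libraries). In 23 of the 42 genes the cKO pair lay wholly below the control pair, against 30.1% of the genes tested, and in 0 wholly above, against 28.1%. The smallest two-sided p that an exact permutation test of 1 gene allows in this design is 0.333.

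The samples of a group differed from each other by nearly as much as the groups did. Control 1 had the highest of the 4 scores for 31 of the 42 genes (33.3% of all genes tested), and cKO 1 had the lowest for 35 (34.7% of all genes tested). Relative to each gene's own mean over the samples, on the log2 scale, the median over the 42 genes was 0.14 in control 1, 0.01 in control 2, -0.15 in cKO 1 and -0.01 in cKO 2. Control 2 and cKO 2 thus lay side by side, with a median difference of -0.03 between them, whereas the median difference of cKO 1 from control 1 was -0.31. The median difference between the 2 control samples was 0.15 and that between cKO 1 and cKO 2 was -0.14, against -0.01 for both over all genes tested. For 19 of the 42 genes the log2 difference between the 2 control samples exceeded the size of the fold change between the groups. The share among all genes tested was not computed, and a difference between single samples varies more than a difference between group means. The median log2 fold change was -0.10 without cKO 1, -0.12 without control 1, -0.26 without cKO 2 and -0.24 without control 2, where in each case the remaining lone sample is assumed to vary like the others. Counts of members past the threshold in these fits are given only in the closing section, with the other processing settings. They are not read as a result, because 1 group then holds a single sample.

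**Figure D1:**
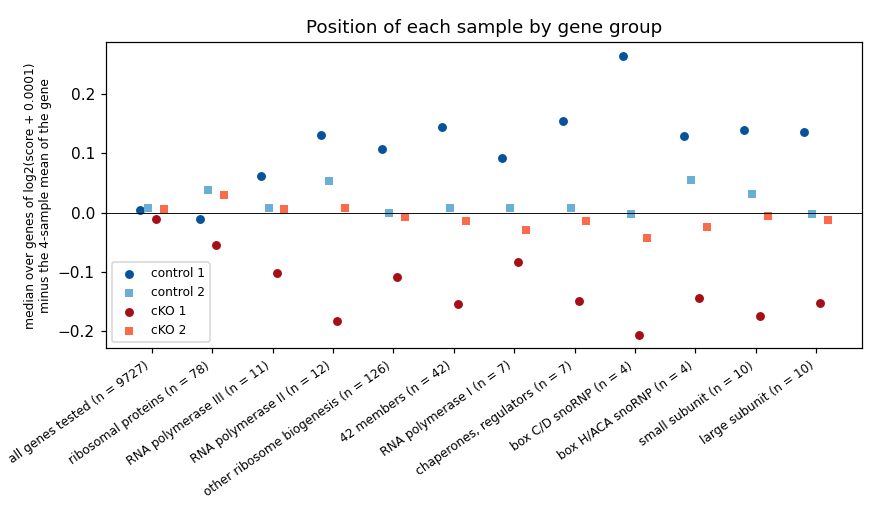
Median over the genes of each group (horizontal axis, with the number of genes tested) of the log2 score relative to the gene's 4-sample mean (vertical axis), 1 point for each sample. For the 42 members control 1 is at 0.14, control 2 at 0.01, cKO 2 at -0.01 and cKO 1 at -0.15, while all genes tested lie near 0 in every sample.

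Summed over the 42 genes, the scores came to 3.24 in control 1, 2.93 in control 2, 2.44 in cKO 1 and 2.77 in cKO 2, which is 0.519, 0.460, 0.405 and 0.447% of all scores of the sample. Npm1 and Ncl made up a large part of this sum. Without both genes the shares were 0.331 and 0.298% in control and 0.278 and 0.299% in cKO samples, and these groups overlapped.

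**Figure D2:**
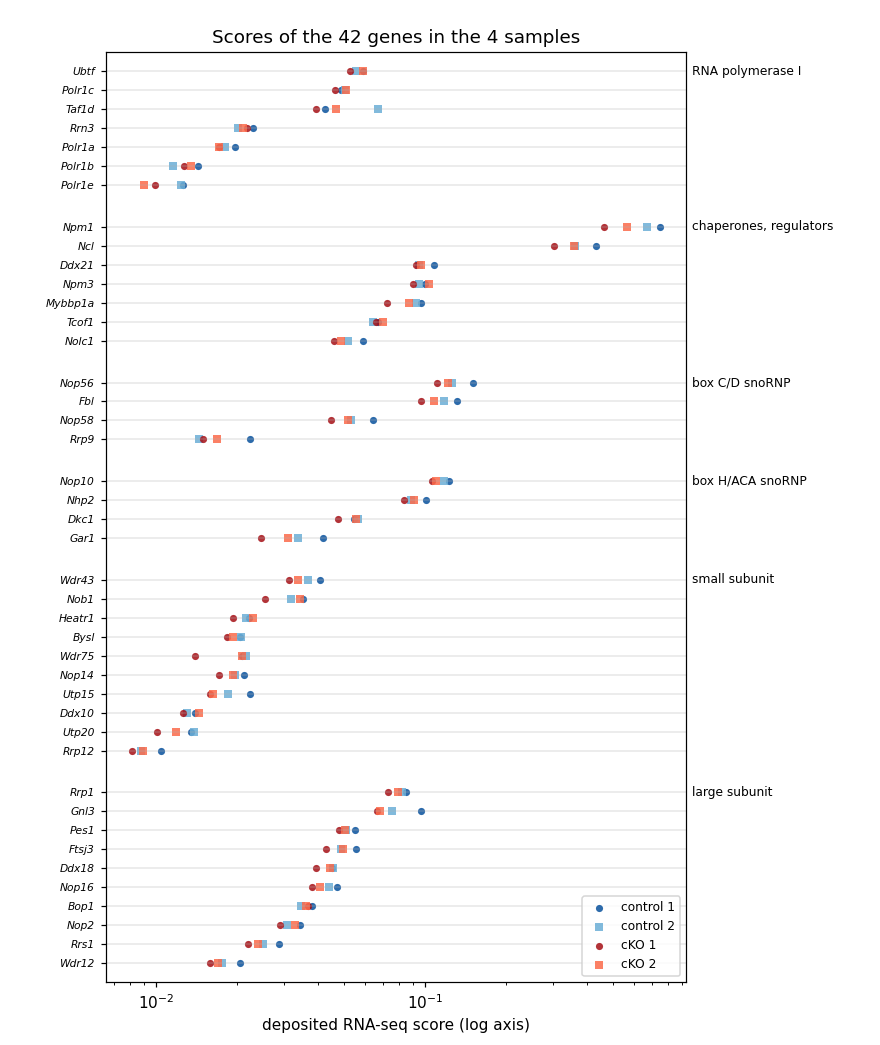
Deposited score (log axis) of each of the 42 genes in the 4 samples, in role groups and ordered by mean score within each group. Mean scores range from 0.00910 (Rrp12) to 0.611 (Npm1), and control 1 is the highest point in 31 rows and cKO 1 the lowest in 35.

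Among the role groups, the 7 members for RNA polymerase I and its initiation factors had the median log2 fold change smallest in size, -0.04. Of these 7, 2 had both cKO scores below both control scores, a share near the 30.1% of all genes tested. More subunits and factors of this polymerase are among the other ribosome biogenesis genes below. They include Twistnb (log2 fold change -0.22), Taf1b (-0.16), Znrd1 (-0.02), Cd3eap (0.02), Taf1c (0.04) and Polr1d (0.08). Ubtf, the upstream binding factor that opens the ribosomal RNA genes, had the highest level of the group, with scores of 0.0590 and 0.0554 in the controls and 0.0526 and 0.0588 in cKO samples. These values overlapped (log2 fold change -0.04, 95% confidence interval -0.27 to 0.19, and 0.0044 after quantile normalization). Rrn3, the factor that recruits the polymerase to the promoter and whose window is shown above, scored 0.0229 and 0.0202 in control and 0.0218 and 0.0210 in cKO samples, so both cKO values lay between the control values. Its interval ran from -0.25 to 0.23 on the log2 scale. Polr1a, the largest catalytic subunit, scored 0.0197 and 0.0181 in control and 0.0171 in both cKO samples (log2 fold change -0.14). Polr1b, the other large subunit, overlapped between the groups, with 0.0143 and 0.0116 against 0.0127 and 0.0135. Polr1c, which RNA polymerase III also contains, overlapped as well, with 0.0487 and 0.0506 against 0.0463 and 0.0509. Polr1e stood apart in this group. This subunit, which helps the polymerase to bind its initiation factor, is encoded at chr4:45031455-45049437 (plus strand). Its scores were 0.0127 and 0.0124 in the controls and 0.00994 and 0.00905 in cKO samples, that is 0.0125 ± 0.00019 against 0.00950 ± 0.00063 (SD, n = 2 each). The groups did not overlap, and the log2 fold change of -0.40 (95% confidence interval -0.65 to -0.15) had a limma adjusted p of 0.118. Taf1d, a subunit of the selectivity factor SL1 and host of 8 snoRNAs, had one high value, 0.0668 in control 2, against 0.0426 in control 1, 0.0392 in cKO 1 and 0.0469 in cKO 2. Its log2 fold change of -0.31 became 0.01 without control 2.

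The nucleolar chaperones and regulators of ribosomal RNA synthesis held the 2 highest levels of the list. Npm1 encodes nucleophosmin, an abundant nucleolar chaperone, at chr11:33052287-33063206 (minus strand). It scored 0.747 and 0.669 in the controls and 0.464 and 0.563 in cKO samples (0.708 ± 0.0549 against 0.514 ± 0.0700, SD, n = 2 each). The groups did not overlap, and the log2 fold change of -0.47 (95% confidence interval -0.76 to -0.18) was the largest in size of the 42 and missed the threshold (limma adjusted p = 0.114, from 0.0483 to 0.481 with a sample left out). Its share of 38-base words with copies elsewhere is given above. Ncl, nucleolin, which binds the nascent ribosomal RNA, scored 0.430 and 0.362 in control and 0.302 and 0.357 in cKO samples. Control 2 and cKO 2 were close together here (log2 fold change -0.27, adjusted p = 0.274). Mybbp1a, a nucleolar repressor of RNA polymerase I that also binds MYB, and Nolc1, a chaperone of snoRNPs, did not overlap between the groups either. Their log2 fold changes were -0.25 and -0.22, with scores of 0.0965 and 0.0930 against 0.0720 and 0.0876 for Mybbp1a and of 0.0587 and 0.0519 against 0.0460 and 0.0486 for Nolc1. Ddx21, an RNA helicase that senses polymerase activity, scored 0.108 and 0.0948 in control and 0.0926 and 0.0963 in cKO samples, which overlapped. Npm3, the small relative of nucleophosmin, ranged from 0.0906 to 0.103 with both extremes in cKO samples (log2 fold change -0.01, and 0.06 after quantile normalization). Tcof1, the treacle protein that brings RNA polymerase I and its factors together, had the highest log2 fold change of the 42, 0.05 (95% confidence interval -0.16 to 0.26), with scores of 0.0669 and 0.0640 in control and 0.0655 and 0.0700 in cKO samples.

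**Figure D3:**
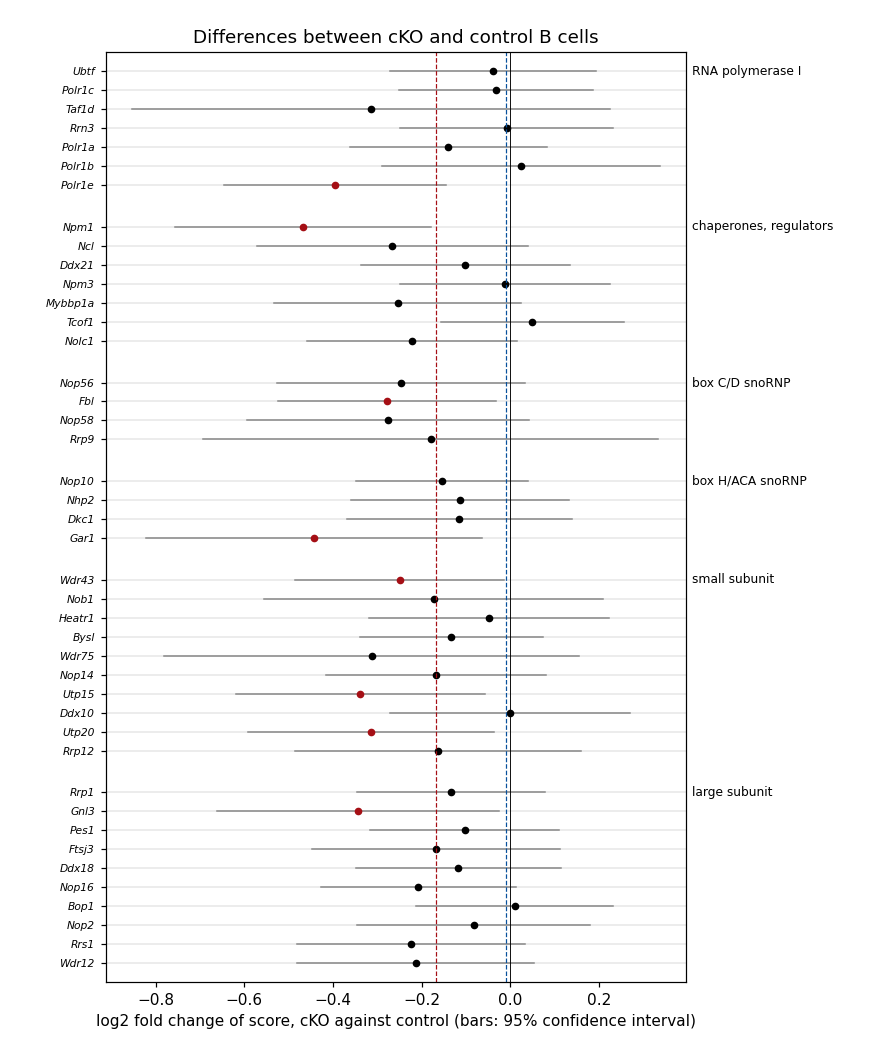
Log2 fold change of cKO against control (points) with its 95% confidence interval (bars) for the 42 genes by role group, with red points for an unadjusted limma p under 0.05, and dashed lines at the median of all genes tested (blue, -0.01) and of the 42 genes (red, -0.17). The intervals of 34 genes include 0, and none reaches -1 (Npm3 and Ubtf, near 0 here, are above 0 after quantile normalization).

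The box C/D snoRNP proteins, which carry the methylation of ribosomal RNA, had the lowest group median, -0.26 over 4 genes, all of them negative (51.8% of all genes tested). Nop56, a core protein of the particle and host of 4 snoRNAs, had the highest level, with scores of 0.151 and 0.126 in control and 0.111 and 0.122 in cKO samples (log2 fold change -0.25, 95% confidence interval -0.53 to 0.03). Fbl, fibrillarin, the methyltransferase itself, scored 0.131 and 0.118 in control and 0.0967 and 0.108 in cKO samples, without overlap (log2 fold change -0.28, adjusted p = 0.195). Most of its sequence is shared with other loci. Nop58, the partner of Nop56, had 0.0642 and 0.0530 against 0.0446 and 0.0519, again without overlap. For these 3 genes the gap between control 1 and control 2 was wider than that between control 2 and cKO 2. Rrp9, which belongs to the U3 particle needed for the first cuts of the precursor, overlapped, with one high value in control 1 (0.0224) and 0.0145, 0.0150 and 0.0168 in the other samples. Its log2 fold change went from -0.18 to 0.14 without control 1.

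The box H/ACA snoRNP proteins take part in the conversion of uridine to pseudouridine, and their median log2 fold change was -0.13 over 4 genes. Nop10, the smallest subunit, had the highest level, with scores of 0.123 and 0.117 in control and 0.106 and 0.110 in cKO samples. These did not overlap (log2 fold change -0.15, 95% confidence interval -0.35 to 0.04). Gar1, at chr3:129527830-129534314 (minus strand), had the second largest difference of the 42 genes. Its scores were 0.0418 and 0.0337 in the controls and 0.0246 and 0.0309 in cKO samples (0.0377 ± 0.00571 against 0.0277 ± 0.00443, SD, n = 2 each). The groups did not overlap, although control 2 and cKO 2 were close, and the log2 fold change was -0.44 (95% confidence interval -0.82 to -0.06, limma adjusted p = 0.187). It was -0.28 without cKO 1, -0.29 without control 1, -0.61 without cKO 2 and -0.60 without control 2. None of its 38-base words occurs elsewhere. Dkc1, dyskerin, the enzyme of the same particle, had 0.0545 and 0.0565 in control and 0.0474 and 0.0555 in cKO samples. Nhp2 had 0.101 and 0.0885 against 0.0835 and 0.0910. Both overlapped between the groups, with log2 fold changes of -0.11 each, so the 4 subunits of one particle had estimates from -0.44 to -0.11 whose intervals overlapped.

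The factors of the small subunit had a median log2 fold change of -0.17 over 10 genes, all of them negative (51.8% of all genes tested) and 5 with the cKO pair wholly below the control pair (30.1%). Wdr43, a component of the large particle that processes the precursor (the small subunit processome), had the highest level, with scores of 0.0407 and 0.0367 in control and 0.0313 and 0.0338 in cKO samples (log2 fold change -0.25, 95% confidence interval -0.49 to -0.01, adjusted p = 0.211). Utp15, another processome protein needed for transcription of the precursor, had 0.0224 and 0.0185 in control and 0.0159 and 0.0162 in cKO samples, with a log2 fold change of -0.34 (95% confidence interval -0.62 to -0.06, adjusted p = 0.178). Utp20, a very large scaffold protein, had 0.0135 and 0.0138 in control and 0.0101 and 0.0119 in cKO samples, with a log2 fold change of -0.31 (95% confidence interval -0.59 to -0.04, adjusted p = 0.195). In all 3 genes both cKO values were the lower ones. In Wdr75, by contrast, a single sample stood apart (log2 fold change -0.31), with 0.0140 in cKO 1 against 0.0209, 0.0217 and 0.0210 in control 1, control 2 and cKO 2. Nob1, the nuclease that makes the last cut of the small subunit RNA, had a similar pattern with 0.0255 in cKO 1 against values from 0.0317 to 0.0353 in the other samples. Bysl had 0.0206 and 0.0208 against 0.0184 and 0.0193, and Nop14 0.0212 and 0.0197 against 0.0172 and 0.0193, so neither overlapped (log2 fold changes -0.13 and -0.17). Rrp12, Heatr1 and the helicase Ddx10 overlapped between the groups. Their log2 fold changes were -0.16, -0.05 and -0.0004.

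The factors of the large subunit had a median log2 fold change of -0.15 over 10 genes, of which 9 were negative (51.8% of all genes tested) and 7 had the cKO pair wholly below the control pair (30.1%). Rrp1 had the highest level, with scores of 0.0853 and 0.0820 in control and 0.0730 and 0.0796 in cKO samples (log2 fold change -0.13, 95% confidence interval -0.35 to 0.08). Gnl3, nucleostemin, a GTP-binding protein of proliferating cells and host of 3 snoRNAs, lies at chr14:31825620-31832275 (minus strand). Its scores were 0.0964 and 0.0755 in control and 0.0662 and 0.0682 in cKO samples, with the widest ratio between the 2 control samples in this role group (log2 fold change -0.34, 95% confidence interval -0.66 to -0.02, adjusted p = 0.206). Pes1, Bop1 and Wdr12 form 1 complex (PeBoW) that is needed to process the large subunit RNA, and their estimates differed in size. Wdr12 had 0.0206 and 0.0177 against 0.0159 and 0.0170, and Pes1 had 0.0547 and 0.0508 against 0.0479 and 0.0503, both without overlap (log2 fold changes -0.21 and -0.10). Bop1 had 0.0381 and 0.0345 against 0.0369 and 0.0361, with both cKO values between the control values (log2 fold change 0.01, 95% confidence interval -0.21 to 0.23). The confidence intervals of the 3 genes overlapped, and the differences among them were not tested. Nop16 and Rrs1 also did not overlap between the groups (log2 fold changes -0.21 and -0.22), and their scores were 0.0470 and 0.0440 against 0.0379 and 0.0409 for Nop16 and 0.0287 and 0.0251 against 0.0220 and 0.0239 for Rrs1. Ddx18 had 0.0452 and 0.0457 in control and 0.0394 and 0.0445 in cKO samples, also without overlap, and most of its sequence has copies elsewhere. Nop2, a ribosomal RNA methyltransferase, and Ftsj3 overlapped (log2 fold changes -0.08 and -0.17).

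The precision bounds what could be present. The 95% confidence intervals of the 42 genes had a median half-width of 0.26 on the log2 scale, and 34 of them included 0. No interval reached a halving, since the lowest bound was -0.85 (Taf1d), a ratio of 0.554, and the highest 0.34 (Polr1b), a ratio of 1.26.

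The median log2 fold change was -0.27 for the 7 genes that host snoRNAs and -0.15 for the other 35. This split was made after the values were seen and was not tested. The 35 genes without much sequence shared with other loci had a median of -0.17, as did the full list.

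Other genes of the same pathway were listed to set the 42 in context, again with earlier results of these data known. Of 129 further ribosome biogenesis genes 126 passed the filter. The adjusted threshold of 0.05 was passed by 2 of them, both lower in cKO, a share close to the 1.25% of all genes tested. The unadjusted p was under 0.05 for 21 with lower and 3 with higher estimates, against 11.5 and 10.8% of all genes tested. Their median log2 fold change was -0.09, and 103 of the 126 were negative, against 51.8%. Pop1, the largest protein of the ribonucleases MRP and P, which cut ribosomal and transfer RNA precursors, fell from 0.0152 and 0.0132 in control to 0.00669 and 0.00674 in cKO samples (log2 fold change -1.07, standard error 0.115, limma adjusted p = 0.0294). Ebna1bp2, an assembly factor of the large subunit, fell from 0.0552 and 0.0541 to 0.0362 and 0.0363 (log2 fold change -0.59, standard error 0.079, limma adjusted p = 0.0345). The cKO samples nearly coincided in both genes. Neither passed without cKO 1 (adjusted p = 0.159 for Pop1 and 0.216 for Ebna1bp2), without cKO 2 (0.0764 and 0.112) or with no filter on the score (0.203 for both), and Ebna1bp2 did not pass without the variance trend (0.0653).

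**Figure D4:**
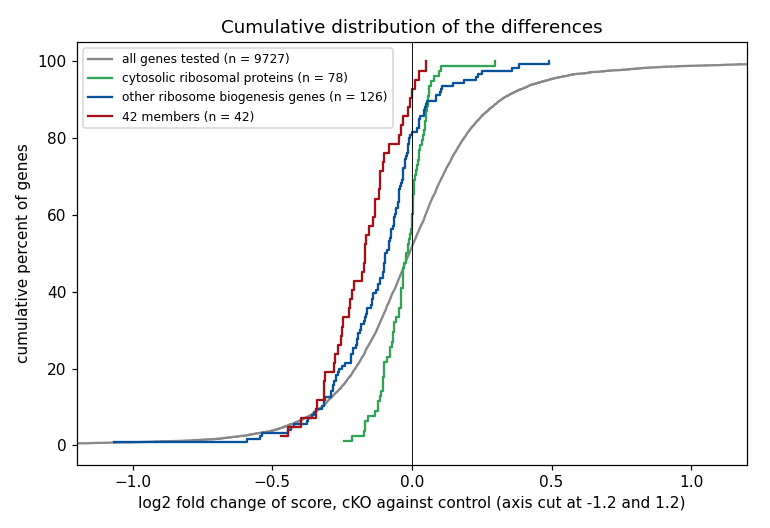
Cumulative percent of genes (vertical axis) against the log2 fold change of cKO against control (horizontal axis) for the 42 members, 126 other ribosome biogenesis genes, 78 cytosolic ribosomal proteins and all 9727 genes tested. The medians are -0.17, -0.09, -0.02 and -0.01 in that order, and no member lies beyond -0.47 or 0.05.

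The subunits of the other nuclear polymerases and the cytosolic ribosomal proteins were set beside the list. The median log2 fold change was -0.13 for the 12 subunits of RNA polymerase II and -0.09 for the 11 of RNA polymerase III. Of these, 10 and 9 were negative, against 51.8% of all genes tested. In either group 0 passed the adjusted threshold, against 1.25% lower and 0.812% higher among all genes tested. Polr2e, Polr2f, Polr2h, Polr2k and Polr2l of the first list are also parts of RNA polymerases I and III. Their log2 fold changes were 0.01, -0.19, -0.23, -0.14 and -0.25 in that order. Control 1 and cKO 1 were again at the extremes, with medians of 0.13 and -0.18 for RNA polymerase II. The 78 cytosolic ribosomal proteins, the most abundant of these transcripts, had a median of -0.02. Of these 78, 46 were negative (51.8% of all genes tested) and 0 passed the threshold. Control 1 was not the highest sample for them (median -0.01, against 0.04 in control 2). No test compared these lists with the 42 genes.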

How the data were processed

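Splenic B cell RNA of 2 control and 2 cKO samples (cells isolated by depleting other cells, poly(A) RNA, a kit that does not mark strand) was sequenced as reads of 38 bases. The authors kept reads with a Phred score of at least 25 and mapped them to mm9 with TopHat at default settings. The submitters' notes also list CASAVA 1.8, Bowtie, SAMtools and bedtools. The authors removed rRNA and tRNA reads and deposited a score per gene and sample, to 5 decimals. The step from reads to the score is not given in the sources used here. Low scores of genes with 1 transcript and 600 to 1600 exon bases, multiplied by that length, fell within 0.2 of whole steps for 75.4 to 81.9% of values, and depth was read from the step. The depth depends on having found the step of 1 read, and exon lengths of GENCODE may differ from the authors'.

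Scores were tested with limma 3.58.1 in R 4.3.3 (trend, two-sided) on log2(score + 0.0001) over the 9727 genes that reached a score of 0.005 in any sample, with Benjamini-Hochberg adjustment over all of them and a threshold of 0.05. Fold changes are on that scale and understate those of low genes. The fit was tested on simulated scores. Python 3.11.15 with scipy 1.17.1, numpy 2.4.6 and pandas 2.3.3 made the tables. The member genes, the other gene lists, the tests and the alternatives were chosen with earlier results of these data known. Scores of all 4 samples are given for every member that is the highest of its role group or has the largest fold change in either direction, and, chosen after their values were seen, for most others. Other ribosome biogenesis genes are named where they passed the threshold. Samples of both groups share the numbers 1 and 2 in the labels, which do not say that these pair the cultures.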

Additional observations from a re-analysis of the deposited data

How the results depend on the processing

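The count of members past the threshold stayed at 0 with the pseudocount of 0.001, the filter above 0.05 (20 members), no filter, no variance trend, quantile normalization, equal medians and the replicate number as a block. With the replicate block 6 members had an unadjusted p under 0.05, and the block changed no call of a named gene. The share of all genes under that p with this block is not given here, so the 6 cannot be set against a background. Same-numbered samples correlated at -0.145 (Spearman -0.291) in their deviations over genes, so a crossed pairing was also tried, chosen after seeing the data. With it as a block 2 members and 4 other ribosome biogenesis genes were lower at the threshold. The crossing was picked from the same deviations that such a block removes, so these counts cannot be read as evidence of a difference. The share of all genes called with it is not given here. The median log2 fold change of the members ranged from -0.17 to -0.16 under these settings, and from -0.26 to -0.10 with a sample left out.

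Leaving out a sample gave from 0 to 3 members lower, from 0 to 7 other ribosome biogenesis genes lower and from 0 to 1 higher, and from 23 to 37 members with all cKO scores below all control scores. With the filter above 0.05 that last count was 11 of 20, and 1 other ribosome biogenesis gene was lower, as without the trend, against 0 with no filter. The filter above 0.05 and the omission of a sample leave fewer genes or samples. With a sample left out, 1 group holds a single sample, so the counts past the threshold are not read as a result. A single sample also makes it easier for all cKO scores to lie below all control scores. The share among all genes tested was not computed there, so counts above 23 do not by themselves show a stronger separation. For the other settings the cause was not tested. Quantile normalization turned the log2 fold changes of Npm3 and Ubtf to 0.0604 and 0.00440. With a sample left out, 12 members changed sign: Npm3 (-0.107 to 0.0806), Nop2 (-0.175 to 0.00929), Nob1 (-0.387 to 0.0409), Polr1b (-0.126 to 0.175), Polr1c (-0.0996 to 0.0352), Rrn3 (-0.0963 to 0.0805), Ubtf (-0.120 to 0.0400), Taf1d (-0.639 to 0.00979), Rrp9 (-0.495 to 0.135), Bop1 (-0.0630 to 0.0815), Ddx10 (-0.102 to 0.101) and Heatr1 (-0.172 to 0.0766). Of 516 values of 45 single genes under alternatives, 480 kept their direction and their side of the threshold, 11 lost the threshold, 5 gained it and 20 changed sign.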
